A study of Mus musculus with 12 samples.

Results

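The genes of glutathione, glucuronide and sulfate conjugation were compared between liver tumours of mice with and without hepatocyte Cre, for 2 floxed alleles of Miz1, each in a deposited table of its own. Members were taken by gene symbol alone: glutathione transferases of the alpha, mu, pi, theta, zeta, omega and kappa classes, every UDP-glycosyltransferase symbol beginning Ugt, and every sulfotransferase symbol beginning Sult. The 2 tables held 62 such genes among 30838 gene names, made up of 21 glutathione transferases, 22 UDP-glycosyltransferases and 19 sulfotransferases. The table of the Miz1 allele held 53 of them among 21751 genes, and the table of the Miz1(POZ) allele held 60 among 24054.

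All 12 libraries came from pure liver tumours of 5-month-old C57BL/6 mice given diethylnitrosamine (DEN, a carcinogen, 25 mg/kg intraperitoneally at week 2) and then carbon tetrachloride weekly (CCl4, a hepatotoxin, 0.5 ml/kg). Miz1 is a BTB-POZ zinc finger protein encoded by Zbtb17. The Miz1fl/fl and Miz1(POZ)fl/fl groups carried the floxed allele without Cre. The Miz1△Hep and Miz1(POZ)△Hep groups carried the same allele with Cre driven by the hepatocyte albumin promoter. Which other cell types of the tumour kept the gene was not measured. Each group had 3 libraries, and the labels do not say whether these were 3 mice, so p-values measure the spread between libraries only. Floxed and knockout are used below for the libraries without and with Cre.

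Conjugation is the step that makes reactive or fat-soluble molecules water soluble. Glutathione transferases join the thiol of glutathione to electrophiles, UDP-glycosyltransferases join glucuronic acid or another sugar from a UDP-sugar to bilirubin, steroids, phenols and drugs, and sulfotransferases move a sulfate group from the donor PAPS to steroids, bile acids, phenols and hormones. Hepatocytes hold high levels of all 3 families, many of them are arranged unevenly between the portal and the central end of the lobule, and several differ between male and female mouse liver. The products leave the cell through ATP-driven exporters such as Abcc2.

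The members sit largely in tandem clusters of the mouse genome (GRCm38 coordinates from GENCODE release M21, which listed all 62). The mu class lies on chromosome 3, the UGT2 genes and Sult1b1, Sult1d1 and Sult1e1 lie on chromosome 5, and the Sult2a genes lie on chromosome 7. The UGT1 genes on chromosome 1 each have a first exon and a promoter of their own and share the remaining exons: between 50.3% and 60.6% of the exon bases of each UGT1 gene were also exon bases of another member. Reads from those shared exons cannot be given to 1 gene, and the same limit holds for near-identical copies. Of the 50-base words of Gstp1, Gsta1 and Sult2a2, 62.3%, 44.6% and 62.1% were found in any other gene named Gst, Ugt or Sult. The gene that held most of them was Gstp2, Gsta2 and Sult2a1, in that order. Values of these genes are therefore uncertain as values of single genes.

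Each UGT1 gene starts from its own promoter, and Gsta3 and Sult1b1 were the members whose floxed and knockout libraries did not overlap in the Miz1 table. The 200 bases before the start site are therefore shown for Ugt1a9, Ugt1a8, Ugt1a1, Gsta3 and Sult1b1 (RefSeq promoter table, GRCm38.p6, written 5′ to 3′ on the strand of the gene). Other UGT1 genes are not printed: Ugt1a2 and Ugt1a7c had no match to the motifs below, and Ugt1a5, Ugt1a6a and Ugt1a10 had matches. Capitals mark matches on either strand to the antioxidant response element TGACNNNGC, which NRF2 binds, to the xenobiotic response element core GCGTG, which the aryl hydrocarbon receptor binds, and to the half-site GTTAAT of the hepatocyte factor HNF1. The Gsta3 match to the antioxidant response element began 121 bases before the start, the Ugt1a8 match to the xenobiotic core 70 bases before it on the opposite strand, and the HNF1 matches of Ugt1a9 and Ugt1a1 91 and 41 bases before it, also on the opposite strand. RefSeq lists 2 starts for Sult1b1: the one shown, at the start of the GENCODE gene, had no match, and the other (chr5:87536223-87536422, not printed) had a xenobiotic core 196 bases before its start.
Ugt1a9 (chr1:88070579-88070778, plus strand): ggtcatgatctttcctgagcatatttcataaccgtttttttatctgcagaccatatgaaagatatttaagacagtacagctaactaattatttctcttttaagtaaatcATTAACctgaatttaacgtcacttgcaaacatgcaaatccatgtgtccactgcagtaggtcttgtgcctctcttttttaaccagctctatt
Ugt1a8 (chr1:88087628-88087827, plus strand): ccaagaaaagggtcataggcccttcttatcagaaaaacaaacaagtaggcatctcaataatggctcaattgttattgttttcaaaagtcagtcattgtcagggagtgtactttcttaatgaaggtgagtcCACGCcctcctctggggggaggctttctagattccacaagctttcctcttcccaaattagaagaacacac
Ugt1a1 (chr1:88211759-88211958, plus strand): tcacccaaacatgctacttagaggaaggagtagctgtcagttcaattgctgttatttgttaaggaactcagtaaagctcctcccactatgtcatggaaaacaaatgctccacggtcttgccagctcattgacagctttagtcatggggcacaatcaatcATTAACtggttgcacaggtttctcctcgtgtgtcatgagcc
Gsta3 (chr1:21240385-21240584, plus strand): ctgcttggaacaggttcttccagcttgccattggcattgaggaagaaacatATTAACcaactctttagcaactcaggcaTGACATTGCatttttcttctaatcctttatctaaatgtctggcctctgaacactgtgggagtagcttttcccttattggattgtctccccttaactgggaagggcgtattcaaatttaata
Sult1b1 (chr5:87538196-87538395, minus strand): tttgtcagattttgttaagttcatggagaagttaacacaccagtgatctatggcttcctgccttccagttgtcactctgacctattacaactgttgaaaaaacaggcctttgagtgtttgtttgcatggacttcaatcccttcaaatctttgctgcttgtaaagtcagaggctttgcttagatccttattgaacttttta

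In the whole windows of the RefSeq table, 300 bases from 250 before to 50 after a start, 65 entries covered 54 of the 62 members. The antioxidant response element was matched in 4.62% of these entries, those of Gsta3, Gstm5 and Gstm7, against 12.4% of the 32851 entries of all genes. The xenobiotic core was matched in 20% of the members' entries against 32.4%, and the HNF1 half-site in 20% against 7.1%, with 30% of the UDP-glycosyltransferase entries, 33.3% of the sulfotransferase entries and 3.7% of the glutathione transferase entries. Matches to different motifs overlapped in Gstm5, in 5 bases, and in no other member. A match is a description of the letters, and no test was made of it.

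The Miz1 table gives normalised read counts and the Miz1(POZ) table gives FPKM, so levels were set side by side only within a table. Zbtb17 itself stood at 323, 306 and 302 normalised reads in the Miz1fl/fl libraries and 261, 271 and 267 in the Miz1△Hep libraries, and at 2.03, 2.46 and 1.82 FPKM against 2.55, 2.6 and 1.95 in the Miz1(POZ) libraries, so its level was lower without overlap in the first table, and in the second it was not lower with Cre. The Zbtb17 level therefore does not check the Cre labels of the Miz1(POZ) table. The 9 hepatocyte markers were present in every library. Both replicate 1 libraries of the Miz1 table stood apart from the other 4: Cyp2e1, a cytochrome P450 of central hepatocytes, was at 6372 and 7059 normalised reads there and between 57731 and 131465 elsewhere. Replicate 2 of the Miz1fl/fl group had the lowest summed level of the 6 measured female-biased liver genes, 2100.1 against 21912 to 117812, and replicate 3 of the Miz1(POZ)fl/fl group had the oncofetal marker Gpc3 at 313 FPKM against 23.4 to 84.1.

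No member passed the test in either table. The test was limma on log2(value + 1) over all genes with a mean of at least 1, called at a Benjamini-Hochberg adjusted p below 0.05. All 53 members of the Miz1 table were tested, the smallest adjusted p of a member was 0.9998, and the background was 0% (0 of 21751 genes). Of the 60 members in the Miz1(POZ) table, 44 were tested, the smallest adjusted p was 0.372, and the background was again 0% (0 of 11201). At an unadjusted limma p below 0.05 there were 3 members in the Miz1 table, all lower, against 364 of all genes (1.67%; 0.887% lower and 0.786% higher). There were 4 members in the Miz1(POZ) table, 2 lower and 2 higher, against 976 of all genes (8.71%; 3.92% lower and 4.79% higher). One of the higher members, Sult2a7, passed the filter on low values only through its knockout libraries, and with median-ratio scaling there were 3 members. edgeR on the reads recovered from 5 libraries of the Miz1 table, all but floxed replicate 3, also called 0 of 51 members and 0 of 19414 genes, with 3 members and 195 genes at an unadjusted p below 0.05.

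The members that were not tested in the Miz1(POZ) table were 16 genes of mean under 1 FPKM, among them Ugt8a, Sult2b1, Sult4a1 and Ugt1a10, and Sult1c1 was listed at 0 in all 6 libraries. Sult2a8 and Ugt1a8 had a row in the Miz1 table alone, and 9 members, including Sult3a1 and Ugt2a1, had a row in the Miz1(POZ) table alone.

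Members of the Miz1 table lay more often below than above their floxed mean. Of the 53, 38 had a log2 fold change (knockout minus floxed) below 0 and 15 above, with a median of -0.31, whereas 47.9% of all genes tested were below 0 and their median was 0.01. Of the 44 members tested in the Miz1(POZ) table, 23 were below 0 and 21 above, with a median of -0.03, against 44.3% of all genes and a median of 0.03. Without the Miz1△Hep replicate 1 library the Miz1 median was -0.06, and without the Miz1(POZ)fl/fl replicate 3 library 30 of 44 members were below 0 with a median of -0.23. Fewer hepatocytes in a tumour and less RNA per hepatocyte cannot be told apart in such bulk libraries.

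**Figure D1:**
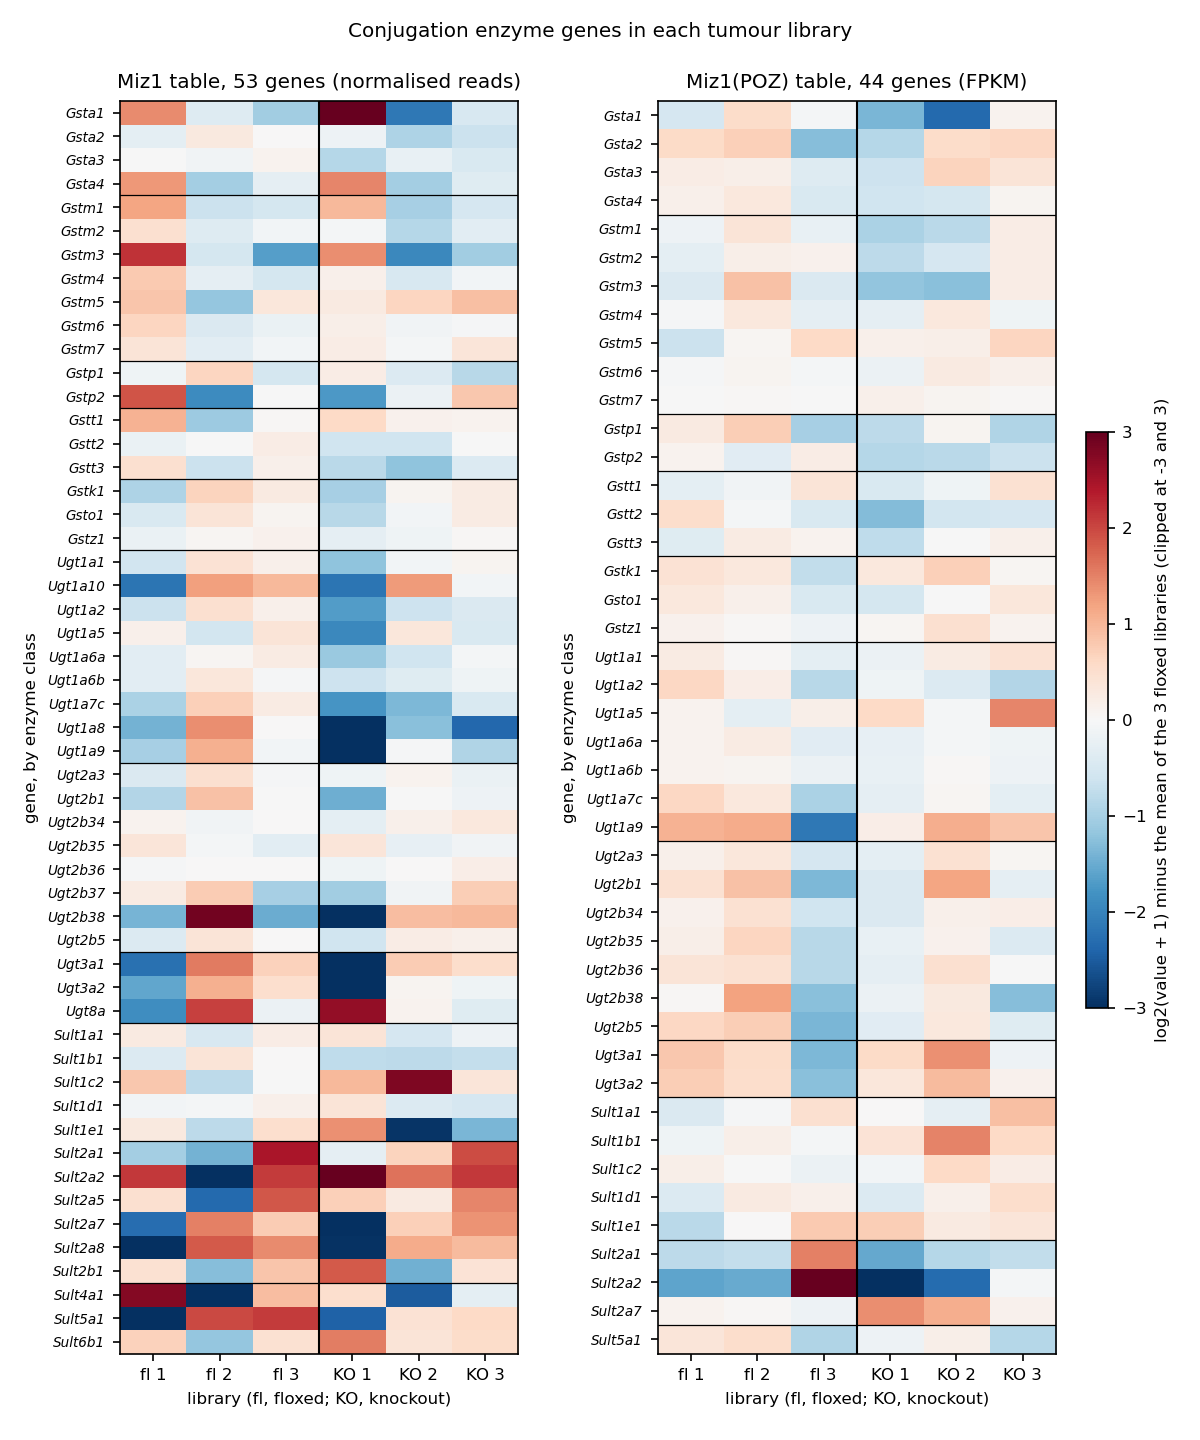
Each cell is log2(value + 1) of a member in 1 library minus the mean of the 3 floxed libraries of its table, with rows by enzyme class and the colour clipped at -3 and 3. In the Miz1 table the replicate 1 columns of both groups share red Gstm1 and Gstm3 rows and blue Ugt3a, Sult2a7 and Sult2a8 rows, and in the Miz1(POZ) table the third floxed column is blue through most UDP-glycosyltransferases.

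The spread between tumours of the same group was wide. The range of log2(value + 1) over the 3 floxed libraries was larger than the size of the log2 fold change in 50 of 53 members (94.3%, all genes 91.5%) of the Miz1 table and in 38 of 44 (86.4%, all genes 81%) of the Miz1(POZ) table. The median of that range was 1.59 over members and 0.72 over all genes in the Miz1 table, and 0.95 and 0.35 in the Miz1(POZ) table.

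The same 6 members had the highest levels per length in both tables. For the Miz1 table, on the scale of normalised reads per kilobase of exon, Gstm1 was first with a mean over the 6 libraries of 22731, followed by Sult1a1 with 6812, Ugt2b5 with 5803, Gstp1 with 5614, Ugt2b36 with 4006 and Gsta3 with 2469. For the Miz1(POZ) table, in FPKM, Gstp1 was first with a mean of 1452, followed by Gstm1 with 1125, Gsta3 with 468, Ugt2b5 with 441, Ugt2b36 with 271 and Sult1a1 with 232. Neighbours in these orders did not all differ beyond their spread: the 3 floxed libraries gave Ugt2b5 5942 ± 1628 and Gstp1 6291 ± 2694 (SD, n = 3) in the first table, and Gsta3 432 ± 92.4 and Ugt2b5 494 ± 293 in the second.

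Among the alpha class glutathione transferases, Gsta3 was lower in the Miz1△Hep libraries without overlap. Gsta3 (ENSMUSG00000025934, chr1:21240589-21265661, plus strand), an enzyme that in mice conjugates the aflatoxin epoxide, was at 12519.6, 11579 and 13547 normalised reads without Cre and 6929, 10684 and 9100.1 with Cre. Each knockout library lay below each floxed library, with a log2 fold change of -0.51 ± 0.20 (SE, n = 3 and 3, limma adjusted p = 0.9998). Among Miz1(POZ) tumours it was at 493, 476 and 325 FPKM without Cre and 276, 679 and 557 with Cre, where the groups overlapped and the log2 fold change was 0.15 ± 0.37 (adjusted p = 0.934). Without 1 Miz1(POZ) library, floxed 3 or knockout 2, that value turned to -0.04 or -0.11.

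The other alpha members gave no common direction. Gsta2 was at 224, 334 and 277 normalised reads in Miz1 floxed and 246, 143 and 175 in knockout libraries, a log2 fold change of -0.58 ± 0.26 (limma adjusted p = 0.9998) with groups that overlapped. Gsta1, its near copy, was at 14.5, 31.0 and 20.2 FPKM in Miz1(POZ) tumours without Cre and 7.5, 3.38 and 22.6 with Cre (-1.20 ± 0.59, adjusted p = 0.635), and knockout replicate 3 lay among the floxed libraries. Gsta4, which conjugates the lipid peroxidation product 4-hydroxynonenal, followed the replicate 1 libraries of the Miz1 table, at 2079.6 and 2327 normalised reads there and 418 to 698 in the other 4.

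The mu class held the member of highest level per length in the Miz1 table and differed between tumours of the same group. Gstm1 (ENSMUSG00000058135, chr3:108012255-108017973, minus strand), the main mu enzyme of mouse liver, was at 67169.6, 18899.8 and 20688 normalised reads in Miz1 floxed and 58215, 14883 and 21039 in knockout libraries. Replicate 1 of each group was the high library, and the groups overlapped (-0.18 ± 0.68, limma adjusted p = 0.9998). Gstm3 was also highest in replicate 1 of each group, at 6277, 961 and 440.3 in floxed and 3643, 361 and 667 in knockout libraries. The summed mu class was 78282 and 65365 normalised reads in the 2 replicate 1 libraries and 17853 to 25009.8 in the rest. In the same 2 libraries the 8 pericentral hepatocyte markers summed to 10979.7 and 11876 against 75588 to 165622. Cyp2e1 alone gave 6372 and 7059 of these, against 57731 to 131465. The 7 periportal hepatocyte markers were lower there too, with sums of 98631 and 92074 against 186682 to 331017. None of the markers of either zone was at 0. The part of zonal identity in the spread of the mu class was not tested.

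Gstm1 in the Miz1(POZ) table was at 1146, 1655 and 1083 FPKM without Cre and 658, 728 and 1477 with Cre (-0.51 ± 0.37, adjusted p = 0.734), with knockout replicates 1 and 2 below all floxed libraries and replicate 3 among them. Gstm3 also had knockout replicates 1 and 2 below all floxed libraries, at 55.0, 137 and 54.8 FPKM without Cre and 32.1, 30.8 and 87.1 with Cre (-0.74 ± 0.51, adjusted p = 0.724). Gstm7 was the mu member without overlap, at 21.1, 21.7 and 21.1 FPKM without Cre and 23.7, 22.5 and 21.9 with Cre, a log2 fold change of 0.09 ± 0.10 (adjusted p = 0.85). Gstm2 had the smallest p of the class in the Miz1 table, at 971, 538 and 661 normalised reads in floxed and 678, 387 and 561 in knockout libraries (-0.41 ± 0.30).

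**Figure D2:**
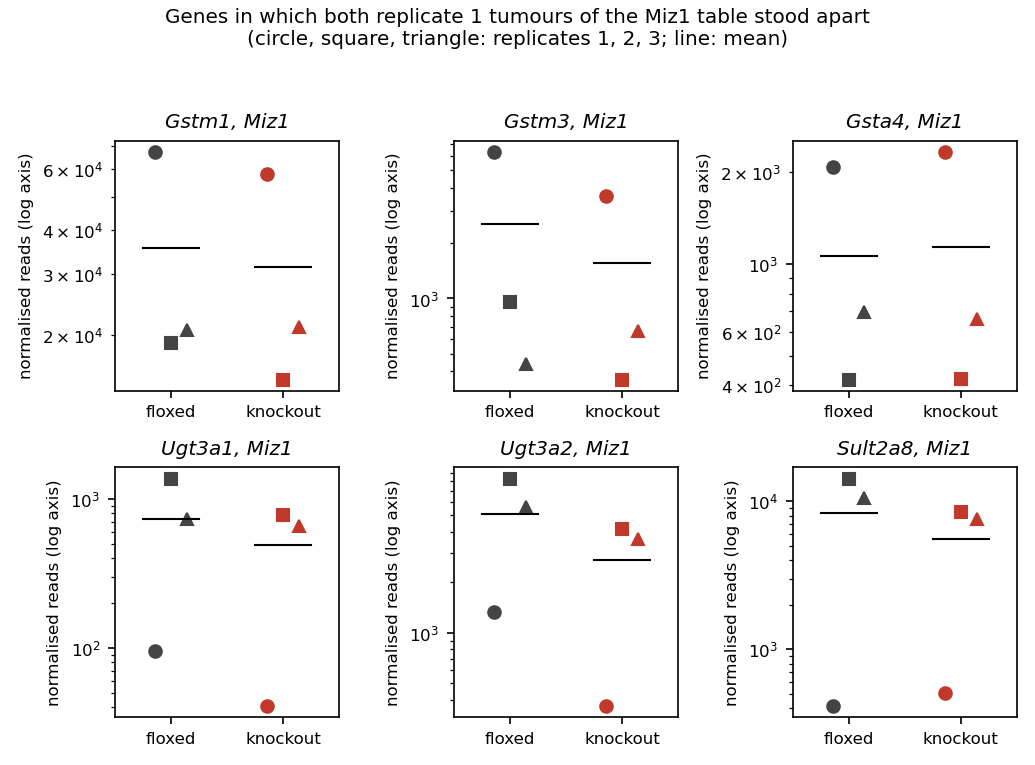
Normalised reads on a log axis in each Miz1 library for 3 glutathione transferases (top) and 3 members that ran the opposite way (bottom), with lines at group means. Replicate 1 (circle) of both groups lies above the other 4 libraries for Gstm1, Gstm3 and Gsta4, and below them for Ugt3a1, Ugt3a2 and Sult2a8.

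Of the pi and theta members, Gstp2 and Gstt2 were lower without overlap in Miz1(POZ)△Hep tumours, and Gstp1, Gstt1 and Gstt3 overlapped. Gstp2 (ENSMUSG00000038155, chr19:4040285-4046023, minus strand) was at 114, 83.7 and 124 FPKM without Cre and 57.9, 59.8 and 67.7 with Cre. All knockout libraries lay below all floxed ones, with a log2 fold change of -0.77 ± 0.18 (limma unadjusted p = 0.00422, adjusted p = 0.372), the smallest p of any member in that table. Of its 50-base words 72.6% were shared, most with Gstp1, whose mean was 1452 FPKM against 84.6 for Gstp2. Its value is therefore uncertain as that of a single gene. Groups did not overlap in 708 of all genes tested in this direction (6.32%), and of the 44 members Gstp2 and Gstt2 did so. Gstp2 in the Miz1 table was at 1696, 123 and 452 normalised reads without Cre and 138, 407 and 794 with Cre, spread widely in both groups (-0.36 ± 1.04).

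Gstp1, whose protein is one of the most abundant transferases of mouse liver, was at 1889, 2621 and 784 FPKM in Miz1(POZ) tumours without Cre and 909, 1673 and 835 with Cre (-0.54 ± 0.50, adjusted p = 0.794). The Miz1 table gave it 8388, 14416 and 6410.1 normalised reads without Cre and 10798, 6929 and 5201 with Cre (-0.33 ± 0.38, adjusted p = 0.9998). Both groups overlapped in both tables, and floxed replicate 2 was the highest library in each.

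Gstt2 (ENSMUSG00000033318, chr10:75831114-75837424, minus strand), a theta enzyme, was at 50.9, 33.6 and 25.3 FPKM in Miz1(POZ) tumours without Cre and 13.7, 23.9 and 24.5 with Cre. The highest knockout library was just under the lowest floxed library, and the log2 fold change was -0.78 ± 0.31 (limma unadjusted p = 0.0398, adjusted p = 0.544). Gstt2 in the Miz1 table was at 861, 976 and 1153 normalised reads without Cre and 658, 654 and 989.5 with Cre, where knockout replicate 3 lay among the floxed libraries (-0.40 ± 0.21). Gstt3 was at 926, 427 and 737 normalised reads in Miz1 floxed and 379.8, 288 and 501 in knockout libraries (-0.80 ± 0.34, adjusted p = 0.9998), and Gstt1, which acts on small halogenated compounds, was at 5595, 1289.7 and 2814 without Cre and 4145, 2975 and 2929 with Cre (0.28 ± 0.51).

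The zeta, omega and kappa members overlapped between groups in both tables. Gstz1, the maleylacetoacetate isomerase of tyrosine breakdown, was at 8549.9, 10274 and 10773 normalised reads in Miz1 floxed and 8083, 8915 and 10054 in knockout libraries (-0.13 ± 0.17), and at 233, 218 and 191 FPKM without Cre and 221, 296 and 231 with Cre in the Miz1(POZ) table (0.21 ± 0.18). Over all 19 glutathione transferases tested in each table, 13 were below 0 with a median of -0.22 in the Miz1 table and 12 with a median of -0.07 in the Miz1(POZ) table.

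Every UGT1 gene had a log2 fold change below 0 in the Miz1 table. The 9 values ran from -2.38 to -0.34 with a median of -0.68, against -0.07 for the 8 UGT2 genes and 0.01 for all genes, and no UGT1 gene passed the test (limma adjusted p = 0.9998 for each). The summed UGT1 level was 3287, 6036 and 4821 normalised reads without Cre and 1569, 4069.6 and 3596 with Cre. Knockout replicate 1 was the lowest library and floxed replicate 2 the highest, and the groups overlapped. Without both replicate 1 libraries 8 of 9 genes were below 0 with a median of -0.50, and with 1 library left out the median ran from -1.24 (floxed 1) to -0.32 (knockout 1). The UGT2 median turned to 0.07 without floxed 2 and 0.14 without knockout 1. Shared exons tie the 9 values together, so they are not 9 separate observations.

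Ugt1a8 (ENSMUSG00000089675, chr1:88087813-88219004, plus strand) had the lowest log2 fold change of the cluster. It was at 19.2, 141 and 53.5 normalised reads in Miz1 floxed and 3.59, 21.5 and 9.6 in knockout libraries, and the groups overlapped because floxed replicate 1 lay below knockout replicate 2. The log2 fold change was -2.38 ± 0.87 (limma unadjusted p = 0.0315, adjusted p = 0.9998). Ugt1a9 was at 473, 2001 and 902 in floxed and 56.3, 933 and 509 in knockout libraries (-1.66 ± 1.08). Ugt1a7c was at 54.0, 173 and 124 without Cre and 30.0, 40.6 and 76.8 with Cre (-1.19 ± 0.54), and Ugt1a2 was at 95.9, 213 and 169.7 without Cre and 46.7, 97.6 and 111 with Cre (-0.91 ± 0.44).

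Replicate numbers of the Miz1 table were taken to pair the libraries, whose deviations from the group means correlated at 0.489, 0.339 and 0.118. That pairing was chosen from these same values and is uncertain, since knockout 3 correlated more with floxed 2 (0.282). Read within these pairs, 7 of the 9 UGT1 genes were lower in the knockout library of all 3 pairs, and 17 of all 53 members were, against 14.3% of all genes. Ugt1a8 was at 18.7%, 15.3% and 17.9% of its same-numbered floxed library. These percentages rest on few reads, with knockout libraries at 3.59, 21.5 and 9.6 normalised reads. In the 5 libraries with recovered reads, 1 read was worth 0.48 to 1.27 normalised reads. With the replicate number as a block, 14 members had an unadjusted limma p below 0.05, 6 of them UGT1 genes, and the background was 2.77% of all genes lower and 2.52% higher. The adjusted p of Ugt1a8 with the block was 0.908, and 0 genes were called.

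**Figure D3:**
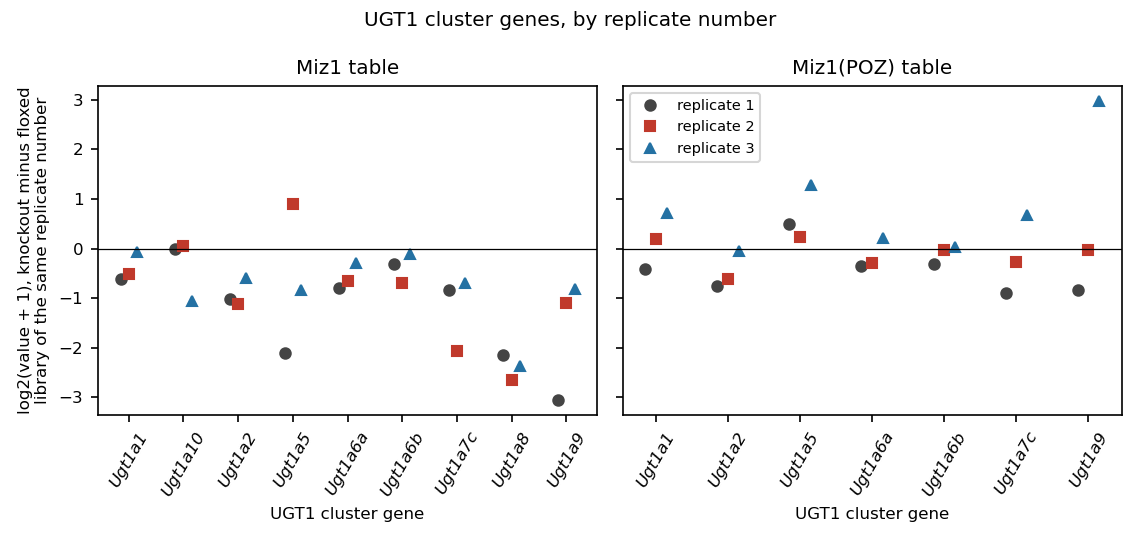
Difference in log2(value + 1) between the knockout and the floxed library of the same replicate number, for the UGT1 genes tested in each table. In the Miz1 table the 3 points lie below 0 for 7 genes and cluster tightly for Ugt1a8, and in the Miz1(POZ) table replicate 3 lies highest for each of the 7 genes, with Ugt1a9 at 2.97. The Miz1 knockout libraries held few Ugt1a8 reads, 3.59 to 21.5 normalised reads.

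The UGT1 genes had no common sign in the Miz1(POZ) table. Of the 7 UGT1 genes tested, 4 were below 0 and 3 above, with a median of -0.11. With the replicate block 7 of the 44 members had an unadjusted limma p below 0.05, where the background was 4.32% lower and 5.29% higher. The replicate numbers were not taken to pair the libraries of the Miz1(POZ) table. Ugt1a1 (ENSMUSG00000089960, chr1:88211959-88218997, plus strand), the bilirubin-conjugating enzyme, was at 167, 145 and 115 FPKM without Cre and 125, 167 and 191 with Cre (0.17 ± 0.22, adjusted p = 0.866), and in the Miz1 table at 691, 1388 and 1147 normalised reads without Cre and 449, 969.6 and 1087 with Cre (-0.40 ± 0.41). Ugt1a9 was at 59.5, 62.6 and 5.67 FPKM in Miz1(POZ) tumours without Cre and 32.9, 61.3 and 51.4 with Cre, so that floxed replicate 3 lay far below the other 5. Ugt1a5 was at 20.1, 14.97 and 21.1 FPKM without Cre and 28.6, 17.7 and 52.6 with Cre (0.67 ± 0.37, adjusted p = 0.667). The difference between the alleles was not tested, since the tables have different units.

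The UGT2 genes, which act mainly on steroids, bile acids and drugs, had no member whose groups did not overlap. Ugt2b5 was at 8112, 14153 and 10856 normalised reads in Miz1 floxed and 7060.0, 12503 and 12011 in knockout libraries (-0.08 ± 0.31). Ugt2b36 varied least of the class, from 7481 to 9305 normalised reads over the 6 libraries. Ugt2b1 was at 2993, 10052 and 5421 without Cre and 1967, 5461 and 4889 with Cre (-0.54 ± 0.55), with replicate 1 the low library of each group.

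Ugt2b5 in the Miz1(POZ) table was at 635, 690.0 and 158 FPKM without Cre and 326, 516 and 320.1 with Cre (-0.12 ± 0.57), and Ugt2b38 was at 1.84, 5.38 and 0.16 without Cre and 1.44, 2.38 and 0.14 with Cre. The summed UGT2 level was 546 FPKM in floxed replicate 3 and 869 to 1690.3 in the other libraries. Without floxed replicate 3, of the 8 UGT2 genes then tested 7 were below 0 with a median of -0.43, against a median of -0.03 with it. In that library the 7 male-biased liver genes summed to 3629 FPKM against 6852 to 14105 elsewhere. The 6 oncofetal tumour markers measured summed to 464 against 44.4 to 114, and Gpc3 made up most of the 464. The 8 pericentral markers summed to 993 against 2152 to 5629, and the 7 periportal markers to 1746 against 3563 to 4304. No gene of these lists was at 0. Their part in the UGT2 level was not tested.

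The UGT3 genes transfer sugars other than glucuronic acid. Ugt3a2 was at 1337, 8264 and 5641 normalised reads in Miz1 floxed and 367, 4165 and 3634 in knockout libraries (-1.16 ± 1.1), and Ugt3a1 was at 95.9, 1364 and 738 without Cre and 40.7, 774 and 663 with Cre. Replicate 1 was the lowest library of each group for both genes. Ugt3a1 in the Miz1(POZ) table was at 28.4, 23.4 and 5.56 FPKM without Cre and 24.1, 42.4 and 13.98 with Cre (0.60 ± 0.62) and Ugt3a2 at 122, 105 and 29.7 without Cre and 92.8, 141 and 79.7 with Cre (0.48 ± 0.53), values that turned to -0.08 and -0.16 without floxed replicate 3. Over the family, 17 of 20 UDP-glycosyltransferases were below 0 in the Miz1 table (median -0.42) and 8 of 16 in the Miz1(POZ) table (median 0.02).

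Sult1b1 separated the floxed from the knockout libraries in both tables, in opposite directions. Sult1b1 (ENSMUSG00000029269, chr5:87513339-87538195, minus strand) sulfates thyroid hormones and small phenols. It was at 296, 512 and 396 normalised reads in Miz1 floxed and 230.0, 226 and 237 in knockout libraries, with all 3 knockout libraries close together below the floxed ones (-0.76 ± 0.22, limma unadjusted p = 0.013, adjusted p = 0.9998). Among Miz1(POZ) tumours it was at 2.71, 3.58 and 2.91 FPKM without Cre and 4.4, 10.3 and 5.13 with Cre, with all 3 knockout libraries above the floxed ones (0.83 ± 0.27, unadjusted p = 0.0193, adjusted p = 0.467). Neither value passed the test. With 1 library left out, the log2 fold change of Sult1b1 ran from -0.96 to -0.57 in the Miz1 table and from 0.51 to 1.04 in the other. Groups without overlap fix that sign in advance, so these ranges describe its size only. Groups of the Miz1 table did not overlap in 5.62% of all genes, downward in 3.05%, and 2 of 53 members, Sult1b1 and Gsta3, did so. Of the 10842 genes tested in both tables, 19 were lower without overlap in the Miz1 and higher without overlap in the Miz1(POZ) knockout, and 10 the reverse.

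The other SULT1 genes showed smaller or wider values. Sult1a1, the main phenol sulfotransferase, was at 12321, 7379 and 11898 normalised reads in Miz1 floxed and 13432, 7269 and 9293 in knockout libraries (-0.08 ± 0.30), and at 150.1, 199.6 and 286 FPKM without Cre and 205, 170.3 and 381 with Cre in the Miz1(POZ) table (0.21 ± 0.36). Sult1c2 was at 134, 44.4 and 75.7 normalised reads in Miz1 floxed and 152, 541 and 98.4 in knockout libraries (1.38 ± 0.70, limma adjusted p = 0.9998), where knockout replicate 2 alone was far above the rest. All 5 SULT1 genes tested in the Miz1(POZ) table were above 0, with a median of 0.25, whereas 4 of 5 in the Miz1 table were below 0 with a median of -0.17. Both counts rested on single libraries. Of the 5 genes, 3 were above 0 in the Miz1(POZ) table without floxed replicate 1 (median 0.051) or without knockout replicate 3 (0.26), and 2 were below 0 in the Miz1 table without knockout replicate 2 (0.0085) or by edgeR without floxed replicate 3 (0.034).

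The SULT2 genes sulfate hydroxysteroids and bile acids, and in mouse liver Sult2a1 and Sult2a2 are known as female-biased. Sult2a2 was at 170.3, 1.08 and 167 normalised reads in Miz1 floxed and 313, 120.4 and 168 in knockout libraries (2.25 ± 1.71). The lone low library was floxed replicate 2, in which the 6 measured female-biased genes summed to 2100.1 normalised reads and 1 of the 6 was at 0, and without it the log2 fold change was 0.13. Sult2a2 in the Miz1(POZ) table was at 4.51, 4.84 and 140.1 FPKM without Cre and 1.05, 2.33 and 14.99 with Cre (-1.79 ± 1.36), and without floxed replicate 3, which had the highest summed level of the 7 female-biased genes (3359 FPKM against 228 to 2617), the value was -0.25. Sult2a1 in the Miz1(POZ) table was at 0.69, 0.77 and 7.27 FPKM without Cre and 0, 0.6 and 0.75 with Cre (-1.05 ± 0.61, adjusted p = 0.687). It passed the filter on low values only through floxed replicate 3. The Y-linked gene Ddx3y was present in all 12 libraries, at 3479 to 4154 normalised reads and 20.8 to 25.4 FPKM. The part of male- or female-biased expression in these values was not tested.

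Sult2a8, a bile acid sulfotransferase of mouse liver, was at 414, 14225 and 10488 normalised reads in Miz1 floxed and 503, 8494 and 7614 in knockout libraries (-0.31 ± 1.67), again with replicate 1 low in both groups. The 7 male-biased genes had library medians of -2.90 and -3.09 relative to the floxed mean (log2) in those 2 libraries, against 0.62 to 2.01 in the other 4. Sult2a7 was higher without overlap in Miz1(POZ)△Hep tumours, at 0.46, 0.4 and 0.22 FPKM without Cre and 2.58, 1.88 and 0.48 with Cre (0.87 ± 0.32, limma unadjusted p = 0.0311, adjusted p = 0.522). Its highest floxed value was just under its lowest knockout value. Sult2a7 passed the filter on low values only through its knockout libraries, with a mean of 1.003 FPKM over the 6 libraries and 0.36 over the floxed ones. Groups did not overlap upward in 8.68% of all genes of that table, and of the 44 members tested Sult1b1, Sult2a7 and Gstm7 did so.

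The remaining sulfotransferases were low. Sult5a1 was at 2.4, 224 and 245 normalised reads in Miz1 floxed and 9.58, 76.0 and 85.9 in knockout libraries (-0.47 ± 1.80), and at 4.15, 4.75 and 1.12 FPKM without Cre and 2.56, 3.51 and 1.2 with Cre in the Miz1(POZ) table (-0.28 ± 0.43). Sult6b1 was at 14.4, 3.25 and 12.1 normalised reads without Cre and 26.4, 11.4 and 13.0 with Cre (0.82 ± 0.63). Replicate 1 was the low Sult5a1 library in both groups of the Miz1 table.

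**Figure D4:**
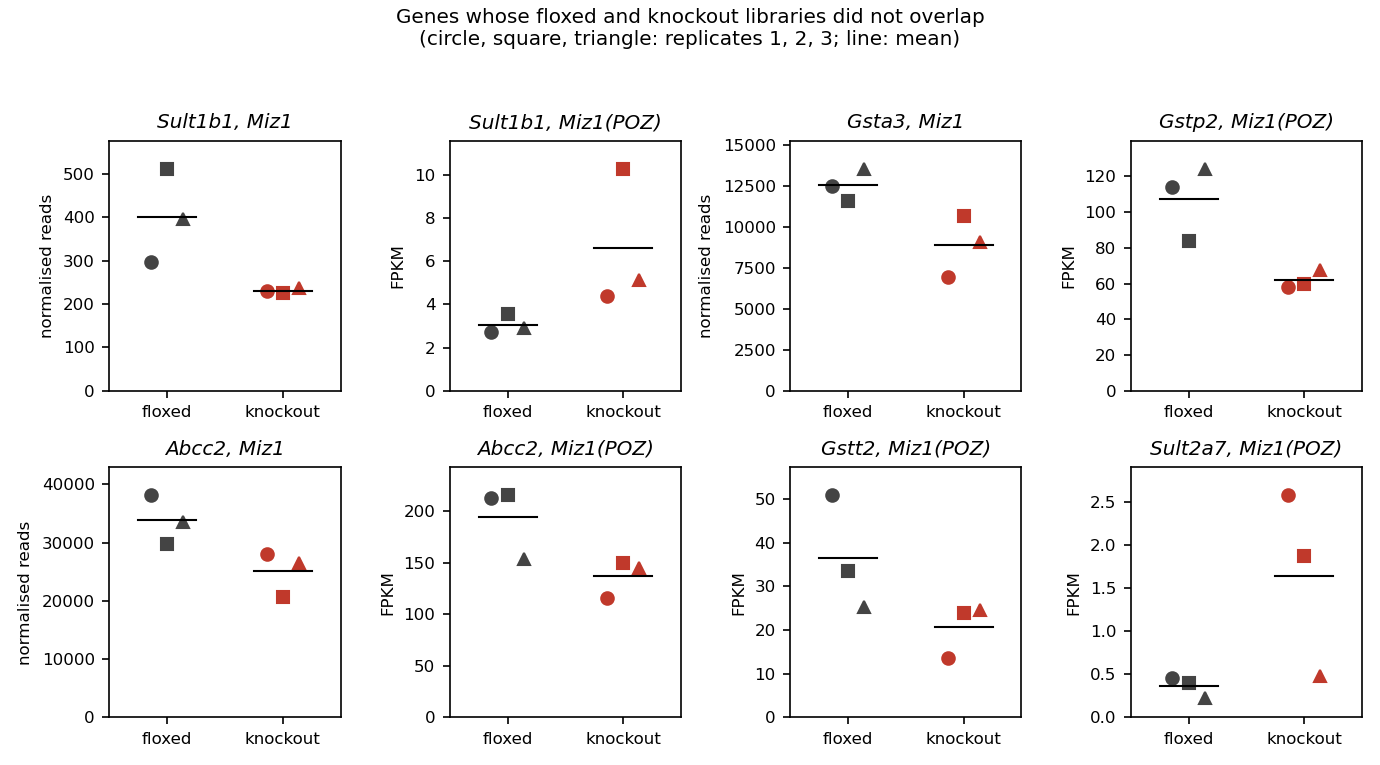
Values in each library, with group means as lines and axes from 0, for 6 members' comparisons and the exporter Abcc2 in which floxed and knockout libraries did not overlap. Sult1b1 is lower in Miz1 knockout (226 to 237 against 296 to 512 normalised reads) and higher in Miz1(POZ) knockout (4.4 to 10.3 against 2.71 to 3.58 FPKM), while Abcc2 is lower in both.

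The genes that feed and drain the conjugation reactions were described from 7 lists. None of their genes passed the test in either table. Abcc2, the canalicular exporter of glutathione and glucuronide conjugates, was lower without overlap in both tables: it was at 38113, 29765 and 33491 normalised reads in Miz1 floxed and 27972, 20690.3 and 26433 in knockout libraries (-0.44 ± 0.21, limma adjusted p = 0.9998), and at 213, 215 and 154 FPKM without Cre and 116, 149 and 145 with Cre in the Miz1(POZ) table (-0.49 ± 0.20, adjusted p = 0.555). Of the 10842 genes tested in both tables, 34 were lower without overlap in both. Of the transporters, 7 of 15 were below 0 in the Miz1 table and 8 of 13 tested in the Miz1(POZ) table, among them Abcc5, at 3.81, 3.49 and 6.58 FPKM without Cre and 2.8, 1.98 and 3.04 with Cre.

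Ephx1, the microsomal epoxide hydrolase that works beside the glutathione transferases on epoxides, was at 8814, 9419.6 and 9689 normalised reads in Miz1 floxed and 6652, 7705 and 7934 in knockout libraries, without overlap (-0.33 ± 0.14). Among Miz1(POZ) tumours it was at 463, 494 and 243 FPKM without Cre and 144, 268 and 228 with Cre (-0.88 ± 0.35, adjusted p = 0.544), where knockout replicate 2 lay above floxed replicate 3. Of the list of other conjugation enzymes it belongs to, 14 of 18 were below 0 in the Miz1 table and 6 of 17 in the Miz1(POZ) table, where Gnmt, the glycine N-methyltransferase, was higher without overlap at 752, 732 and 472 FPKM without Cre and 886, 1359 and 1112 with Cre.

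Of the 14 genes of glutathione synthesis and turnover tested in the Miz1(POZ) table, 3 had an unadjusted limma p below 0.05, against 8.71% of all genes. Slc7a11, the cystine importer that feeds glutathione synthesis, was at 3.05, 2.96 and 4.64 FPKM without Cre and 0.82, 0.29 and 0.39 with Cre (-1.60 ± 0.20, limma adjusted p = 0.113), and Cth, which makes cysteine from cystathionine, was at 102, 119 and 47.5 without Cre and 136, 243 and 148 with Cre (1.02 ± 0.39, adjusted p = 0.53). Slc7a11, counted among the 3, passed the filter on low values only through its floxed libraries, since its knockout values were all under 1 FPKM. Neither the groups of Slc7a11 nor those of Cth overlapped, as held for 15% of all genes of that table. In all, 9 of the 14 were below 0 there and 8 of 17 in the Miz1 table, where Ggct was at 474, 183 and 313 normalised reads without Cre and 489, 403 and 376 with Cre and Gsr at 2507, 2775 and 2019.9 without Cre and 2190.0, 2124 and 2049 with Cre. Among 7 other glutathione enzymes tested in the Miz1(POZ) table, 6 were above 0, with Gpx3 at 6.07, 8.38 and 7.58 FPKM without Cre and 9.39, 11.5 and 20.8 with Cre and Gstcd at 1, 1.17 and 1.3 without Cre and 1.52, 1.45 and 1.64 with Cre.

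No gene of the lists of sugar or sulfate donor supply and removal passed the test. These lists also hold enzymes that cleave conjugates, such as Gusb, Sts and Arsa, so their counts are not counts of supply alone. Ugdh, which makes UDP-glucuronic acid, was at 2531, 3125 and 2393 normalised reads in Miz1 floxed and 2035, 2455 and 1908 in knockout libraries (-0.33 ± 0.17). Of the genes of UDP-glucuronate supply and removal, 3 of 8 were below 0 there and 6 of 7 in the Miz1(POZ) table. Among the latter was Ugp2, at 129, 176 and 242 FPKM without Cre and 115, 134 and 158 with Cre. Slc26a1, a sulfate transporter, was at 2708, 3692 and 3577 normalised reads in the Miz1 table without Cre and 2317, 2805 and 2315 with Cre (-0.42 ± 0.17, limma unadjusted p = 0.0497). There 7 of 13 genes of sulfate and PAPS supply and removal were below 0. Of that list 4 of 13 genes tested were below 0 in the Miz1(POZ) table, and Papss1, a PAPS synthase, was at 1.63, 1.38 and 1.86 FPKM without Cre and 3.23, 3.2 and 1.8 with Cre (0.49 ± 0.19).

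Of 21 xenobiotic regulators and their targets, 16 were below 0 in the Miz1 table (median -0.19) and 11 of 19 in the Miz1(POZ) table (median -0.15). Nr1i3, the nuclear receptor CAR, was at 377, 1315 and 768 normalised reads in Miz1 floxed and 252, 494 and 459.7 in knockout libraries (-0.91 ± 0.49), and its target Cyp2b10 at 3.6, 62.8 and 29.3 without Cre and 0, 3.8 and 9.12 with Cre (-2.50 ± 1.23). Among Miz1(POZ) tumours Bach1, a repressor of antioxidant response element genes, was lower without overlap at 22.9, 20.7 and 29.5 FPKM without Cre and 10.7, 15.1 and 13.3 with Cre (-0.85 ± 0.18, limma adjusted p = 0.36), as was Nr1i2, the nuclear receptor PXR, at 38.7, 29.6 and 26.7 without Cre and 18.6, 22.3 and 23.7 with Cre (-0.52 ± 0.17, adjusted p = 0.467).

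Markers of macrophages, stellate cells and cholangiocytes were highest in 1 library. In Miz1△Hep replicate 1, the lowest library of the UGT1 genes, the 7 macrophage markers summed to 16419 normalised reads against 3639.7 to 9779 elsewhere, the 7 stellate and myofibroblast markers to 12788 against 6151 to 8439, and the 6 cholangiocyte markers to 10249 against 1917 to 7439, with none at 0 in any library. Their part in the UGT1 values was not tested.

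Set side by side, 44 members were tested in both tables. Of these, 17 were below 0 in both, 5 above 0 in both, 16 below 0 in the Miz1 table alone and 6 below 0 in the Miz1(POZ) table alone. No member was apart in the same direction in both tables. Of all 10842 genes tested in both, 34 were apart downward and 45 upward in both. At that share few or none of 44 members would be apart, so the absence says little about them.

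**Figure D5:**
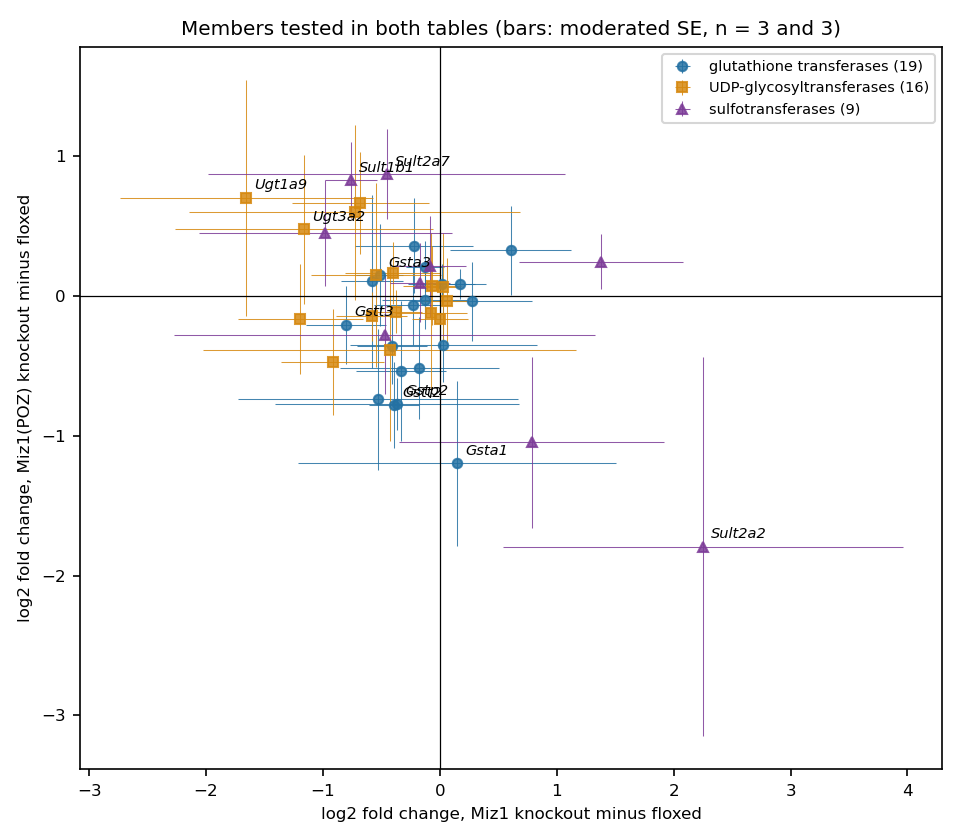
Log2 fold change of the 44 members tested in both tables, Miz1 on the horizontal and Miz1(POZ) on the vertical axis, with bars of 1 moderated SE. Most points lie left of 0 on the horizontal axis and on both sides of 0 on the vertical, Sult1b1 lies at -0.76 and 0.83, and Sult2a2, with wide bars, at 2.25 and -1.79.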

How the data were processed

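RNA of flash-frozen tumours was sequenced from TruSeq libraries, per the labels' protocols. The Miz1 table holds a signal, read counts that the authors divided by 1 factor per library, as the steps between the deposited values show for 5 of the 6 libraries. For the remaining one, Miz1fl/fl replicate 3, the step was near 1 and reads were not claimed. Leaving that library out of edgeR was a choice and was not forced by its values. The Miz1(POZ) table holds FPKM made by the authors, whose depth is unknown. The genome build was mm10 and the tools included Bowtie2 2.2.6, RSEM 1.1.17, DESeq2 1.16.1 and edgeR 3.18.1, per the submitters' processing notes, which do not tie a tool to a table. The Miz1 table also had 4 entries that named no gene, which held 38% to 50.8% of a column and were left out.

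Each table was tested by itself on log2(value + 1) with limma 3.58.1 (R 4.3.3, trended moderation, two-sided), over genes with a mean of at least 1, and p-values were adjusted over all of them by the Benjamini-Hochberg method. With 3 libraries in each group an exact permutation test cannot go below 0.1 for 1 gene, so none is given. Fold changes on this scale understate those of low genes. Whole reads were recovered for 5 libraries of the Miz1 table (100% of values within 0.01 read, 30151743 to 76122969 reads in genes) and tested with edgeR 4.0.16, 2 floxed against 3 knockout libraries, as an alternative chosen after seeing the data. The scripts were tested on simulated data.

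Named members were the highest and the smallest p of each class and table. The 8 smallest p of each table and those apart in both tables were also named. List genes were taken from the 2 smallest p of each pathway list and table. Of these, Ptges, Mgst2, Hk2, Arsg, Acsm5 and Abcg2 of the Miz1 table are not given with values. The same holds for Slc35d2 and Slc35b2 of the Miz1(POZ) table. Gsta4, Gstm7, Ugt1a9, Ugt2b36 and the single genes Cyp2e1, Gpc3 and Ddx3y were named after their values were seen, and a member named for 1 table may also be given in the other. The members, lists and tests were chosen with earlier results of these data known. Same-numbered libraries of the Miz1 table correlated in their deviations from the group means (0.489, 0.339 and 0.118), each above 0.1, so the numbers were taken to pair them. The pairing comes from these values, since the labels give numbers only, and knockout 3 correlated more with floxed 2 (0.282). Alternatives were other pseudocounts, filters, scalings and moderation, the replicate block, and leaving out libraries.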

Additional observations from a re-analysis of the deposited data

Results flagged for a closer look

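Sult1b1 was flagged because every Miz1△Hep library lay below every Miz1fl/fl library, while every Miz1(POZ)△Hep library lay above every Miz1(POZ)fl/fl library. Its log2 fold changes were -0.76 and 0.83. The difference between the alleles was not tested, because the tables have different units.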

How the results depend on the processing

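No member was called under any of the 19 settings of the Miz1 table (smallest limma or edgeR adjusted p 0.704) or the 18 of the Miz1(POZ) table (0.0662). The Miz1 member median of -0.31 ran from -0.46 to -0.061 with 1 library left out and was -0.094 without both replicate 2 libraries. The Miz1(POZ) member median of -0.03 was 0.028 with no filter on low values, ran from -0.23 to 0.16 with 1 library left out, and was 0.083, 0.0051 and -0.30 without both libraries of number 1, 2 and 3. Genes called in the Miz1(POZ) table, 0 with all libraries, numbered 0 to 4 with 1 library left out (1, 2 and 4 without floxed 1, 2 and 3), 2 without both replicate 2 libraries and 57 without both replicate 3 libraries. Single genes changed sign in 42 cases and kept it in 1182. In the Miz1 table these were Gstt1 (-0.023) and Sult1a1 (0.034) with edgeR, Ugt2b5 (0.0015) with quantile normalization, and, with 1 library left out, Gstm1 (-0.75 to 0.41), Gstt1 (-0.26 to 0.79), Sult1a1 (-0.32 to 0.12), Sult2a8 (-1.93 to 1.02), Sult5a1 (-2.51 to 0.58) and Ugt2b5 (-0.28 to 0.19). Without both libraries of a number, Gstp1 was 0.031 (2), Gstt1 -0.19 (2), Sult1a1 0.051 (3) and Sult5a1 0.068 (2) and 0.046 (3). In the Miz1(POZ) table, with 1 library left out, they were Gsta3 (-0.11 to 0.53), Gstt1 (-0.29 to 0.17), Sult1a1 (-0.13 to 0.45), Sult5a1 (-0.73 to 0.012), Ugt2b38 (-1.01 to 0.22), Ugt2b5 (-0.81 to 0.25), Ugt3a1 (-0.078 to 1.00) and Ugt3a2 (-0.16 to 0.85). Without both libraries of a number, Gsta3 was -0.030 (2) and -0.16 (3), Gstt1 0.024 (1), Ugt1a1 -0.11 (3) and Ugt2b5 0.30 (1) and 0.028 (2). The cause was not tested. The replicate block called 0 members and 0 genes in either table. In the Miz1(POZ) table same-numbered libraries correlated at -0.093, 0.23 and 0.175, so the numbers were not taken to pair them, and the block gave 7 members an unadjusted p below 0.05 against 4 without it.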
